A study of Mus musculus with 24 samples.

Results

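Calprotectin and the granule proteins of neutrophils are encoded by genes that were measured by RNA sequencing in gastrocnemius, the large calf muscle, of mice with and without LLC1 tumour cells. The 10 genes described are S100a8, S100a9, Mmp8, Mmp9, Ltf, Ngp, Camp, Lcn2, Retnlg and Chil3. They were taken by gene symbol, and each symbol matched 1 row, which gave 10 of the 43346 genes counted. Every group was of the C57BL6 strain. Female LLC1 mice and male LLC1 mice, 7 weeks old, had received a subcutaneous injection of LLC1, a Lewis lung carcinoma line of the mouse that the labels call a lung adenocarcinoma, and female vehicle mice and male vehicle mice had received PBS. Muscle was taken 3 weeks later. Each of the 4 groups held 6 mice. The tumour is a transplanted line growing under the skin, so it models neither a tumour arising in the lung nor one growing in muscle. The labels do not say whether blood was washed from the tissue.

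Neutrophils are short-lived white blood cells that are made in bone marrow and reach tissues through the blood. S100a8 and S100a9 encode the 2 chains of calprotectin, a calcium-binding protein that fills the neutrophil cytosol, withholds zinc and manganese from microbes and signals through Tlr4 and Ager (RAGE) once released. The other proteins are packed into granules or secreted: granules form one after another during maturation in the marrow, primary granules first, then secondary granules (Ltf, Camp, Ngp, Lcn2 and Mmp8), then tertiary granules (Mmp9). Transcripts of many granule proteins are known to fall as the cell matures, whereas those of S100a8 and S100a9 stay abundant in circulating cells.

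S100a8 (chr3:90669071-90670034, plus strand) and S100a9 (chr3:90692632-90695721, minus strand) are neighbours, 22.6 kb apart on chromosome 3 of mm10. Camp (chr9:109847377-109849456), Ngp (chr9:110419808-110423010) and Ltf (chr9:111019292-111042766) stand within 1170 kb of each other on chromosome 9, and Mmp8 (chr9:7558429-7568486) lies far from them on the same chromosome. Mmp9 (chr2:164940780-164955850) and Lcn2 (chr2:32384633-32388252) are on chromosome 2, Retnlg (chr16:48872608-48874498) on chromosome 16 and Chil3 (chr3:106147554-106167564) on chromosome 3. All 10 are annotated as protein-coding, and no exon of a member overlapped an exon of another gene. The 250 bases before the RefSeq start (GRCm38.p6) were found for 9 of the 10. They are printed for the calprotectin pair and for Mmp8, Ngp and Ltf, the members with the largest fold changes, 5′ to 3′ on the gene's strand. Their windows are chr3:90668821-90669070 for S100a8, chr3:90695722-90695971 for S100a9, chr9:7558179-7558428 for Mmp8, chr9:110419558-110419807 for Ngp and chr9:111019042-111019291 for Ltf. Capitals mark each match to TTGCNNAA on either strand, the core of sites read by C/EBP factors, and to TATAAA on the gene's strand.
S100a8: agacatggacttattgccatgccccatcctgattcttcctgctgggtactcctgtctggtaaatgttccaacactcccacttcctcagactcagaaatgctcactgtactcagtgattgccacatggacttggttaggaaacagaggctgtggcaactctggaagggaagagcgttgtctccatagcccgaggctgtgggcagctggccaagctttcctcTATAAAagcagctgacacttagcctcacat
S100a9: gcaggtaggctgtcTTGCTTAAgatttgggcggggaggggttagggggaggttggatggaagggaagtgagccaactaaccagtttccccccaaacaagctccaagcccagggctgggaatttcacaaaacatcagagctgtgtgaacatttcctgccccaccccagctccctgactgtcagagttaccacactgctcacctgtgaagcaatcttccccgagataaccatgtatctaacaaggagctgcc
Mmp8: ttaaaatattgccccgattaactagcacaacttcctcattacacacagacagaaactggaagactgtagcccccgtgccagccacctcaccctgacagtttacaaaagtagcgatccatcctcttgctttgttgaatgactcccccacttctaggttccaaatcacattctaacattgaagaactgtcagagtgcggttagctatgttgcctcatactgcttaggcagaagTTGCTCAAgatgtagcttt
Ngp: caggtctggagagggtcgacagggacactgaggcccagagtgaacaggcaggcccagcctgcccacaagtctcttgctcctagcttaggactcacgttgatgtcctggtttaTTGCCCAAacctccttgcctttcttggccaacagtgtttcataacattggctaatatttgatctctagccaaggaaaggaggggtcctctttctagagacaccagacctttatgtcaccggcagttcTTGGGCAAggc
Ltf: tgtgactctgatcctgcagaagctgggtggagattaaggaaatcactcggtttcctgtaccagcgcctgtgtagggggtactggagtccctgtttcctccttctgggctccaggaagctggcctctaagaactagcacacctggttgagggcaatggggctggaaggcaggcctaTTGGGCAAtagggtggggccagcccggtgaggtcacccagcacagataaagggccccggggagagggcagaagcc
The C/EBP letters stood in 6 of the 9 windows (S100a9, Mmp8, Ngp, Ltf, Lcn2 and Retnlg), against 9.56% of 32851 RefSeq promoter windows of the same length. In Ngp they occurred at both -138 and -11 from the start, in Mmp8 at -19, in Ltf at -75 and in S100a9 at -236. For Lcn2 the RefSeq start lies inside the gene as the count table places it, so its window is not printed. TATAAA was found in 1 window, S100a8 at -30, against 7.59% of all windows. GAGGAAGT, letters read by PU.1 (Spi1), stood on either strand in S100a8 and Mmp8, against 2.44%, and TTCNNNGAA, letters read by STAT factors, in Chil3 alone, against 7.02%. These motifs do not overlap each other in the windows searched, and a match is a description of letters only.

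Totals were 26.2 to 47.4 M (mega-counts) a library. The tissue label matched the data: 8 muscle fibre markers summed to 123000 to 195000 CPM in every library, where CPM is counts per mega-count of the scaled library size. Markers of red blood cells, 8 measured of 9 listed, were higher in LLC1 muscle and separate from vehicle, with sums of 1230 to 20000 CPM in female LLC1 mice and 474 to 1030 CPM in female vehicle mice, and in males of 1210 to 4300 CPM with LLC1 against 426 to 1080 CPM with vehicle. Female LLC1 mouse 2-4, with 20000 CPM, stood apart from the next at 3170 CPM. Male LLC1 mouse 1-4 stood apart in markers of B cells (25.3 CPM summed over 5 genes) and of T and NK cells (14.4 CPM over 9 genes), where the other 5 male LLC1 mice had at most 2.84 and 1.27 CPM. Leaving out these mice and the 3 vehicle mice that stood apart in a member kept 10 of 10 members called in males and 8 of 10 in females, where Mmp9 (adjusted p = 0.0651) and Camp (0.0795) were lost. The part that blood within the muscle has in the values was not tested. In bulk muscle more neutrophils and more RNA per neutrophil cannot be told apart.

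All 10 genes were higher in LLC1 muscle in each sex. The calprotectin pair, Mmp8, Ngp and Ltf were close to absent from vehicle muscle and stood higher in LLC1 muscle by 6 or more on the log2 scale. Retnlg and Chil3 followed, then Lcn2 and Camp, and Mmp9, which vehicle muscle also expressed, moved least. With edgeR, 10 of 10 were called higher in females, where 4.97% of the 17773 genes tested were called higher, and 10 of 10 in males, where 19.5% were. The median log2 fold change of the 10 was 5.32 in females and 6.07 in males, against -0.01 and 0.01 over all genes tested, and with Ltf at its lower bound the median in males was again 6.07. Only 4 of the 10 (S100a8, S100a9, Mmp9 and Lcn2) reached the filter on low counts in at least 6 vehicle libraries. The other 6 passed it through LLC1 libraries and had to be higher there, so these counts are a description only. Lane is a further limit: the descriptions give 1 sequencing lane per group, and a lane effect and a group effect cannot be told apart.

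**Figure D1:**
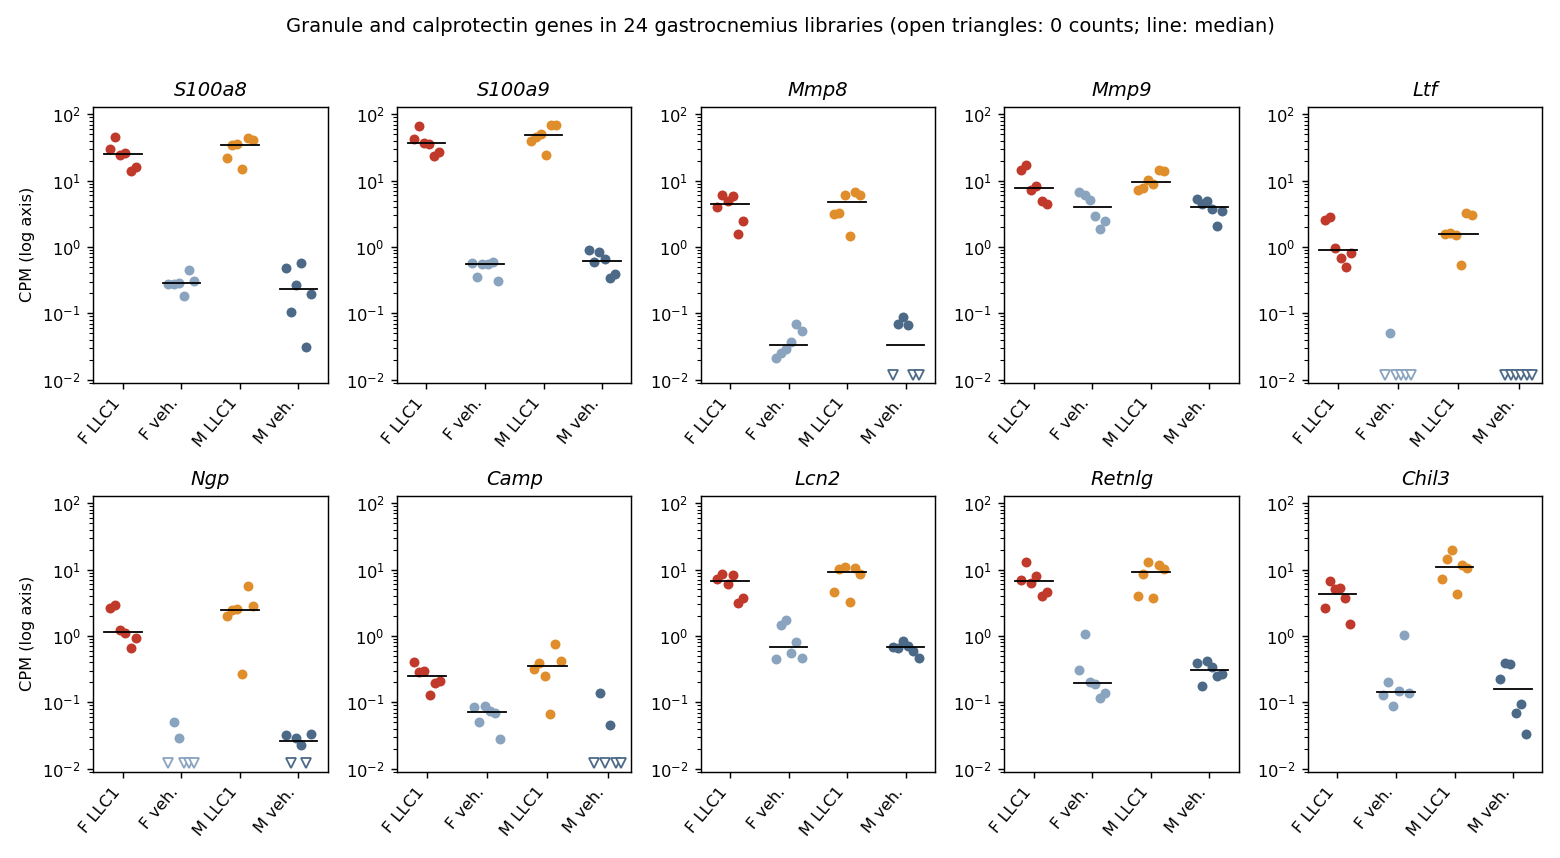
CPM (log axis) of each of the 10 genes in every library, by group (F, female; M, male; veh., vehicle), with a line at the group median and open triangles for libraries with 0 counts. LLC1 libraries stand above all vehicle libraries of their sex in every panel except Mmp9 in females and Camp in males.

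The calprotectin chains were the most abundant of the 10 in LLC1 muscle. S100a9 had 23.4, 36.6 and 67.0 CPM (lowest, median, highest) in female LLC1 mice and 0.303, 0.555 and 0.594 CPM in female vehicle mice. In males it had 24.4, 48.3 and 69.5 CPM in LLC1 mice and 0.344, 0.626 and 0.902 CPM in vehicle mice. Every LLC1 mouse stood far above every vehicle mouse of its sex, and the vehicle mice of both sexes held 11 to 29 raw counts each. S100a9 rose by 6.30 ± 0.33 (log2 ± SE, 78.7-fold) in females and 6.30 ± 0.32 (78.8-fold) in males, with edgeR adjusted p-values of 1.92e-11 and 1.47e-11. S100a8 had 567, 954 and 1785 raw counts in female LLC1 mice, with a median of 25.1 CPM, and 5, 11 and 20 counts in female vehicle mice, with a median of 0.285 CPM. Male LLC1 mice had 447, 1200.5 and 1898 counts (median 34.8 CPM) and male vehicle mice 1, 7.5 and 25 (median 0.232 CPM). The groups did not overlap in either sex. S100a8 rose by 6.40 ± 0.40 in females (adjusted p = 4.09e-10) and 6.77 ± 0.41 in males (adjusted p = 1.06e-10).

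Per length of the gene model, the 2 chains were measured at similar levels. Within single LLC1 mice, S100a8 per kilobase was 79.9% to 94.7% of S100a9 per kilobase in females and 75.3% or more, with a median of 83.6%, in males. Together they made up 62.3% to 69.7% of the raw counts of the 10 genes in female LLC1 mice, against 6.56% to 20.9% in female vehicle mice. In males the share was 57.4% to 67.4% in LLC1 mice, against 10.8% to 19.6% in vehicle mice. In vehicle muscle the 10 genes summed to 108 to 398 raw counts a library, of which Mmp9 made up 37.3% to 78.4% in females and 60.5% to 71.8% in males.

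Among the secondary granule genes, Mmp8, the neutrophil collagenase, had 64, 168 and 238 raw counts in female LLC1 mice and 1, 1 and 3 in female vehicle mice. Male LLC1 mice had 45, 160.5 and 284 counts and male vehicle mice 0, 1 and 3. No LLC1 library came near a vehicle library, and 3 male vehicle libraries held no Mmp8 read. Mmp8 rose by 6.59 ± 0.54 in females (adjusted p = 1.95e-08) and 6.70 ± 0.55 in males (adjusted p = 1.42e-08). The summed counts, scaled by library size, stood in a ratio of 104 in females (95% exact interval 54.7 to 229) and 116 in males (58.9 to 271). These intervals and those that follow cover counting error only.

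Ltf, which encodes the iron-binding protein lactotransferrin, had 20, 33.5 and 110 raw counts in female LLC1 mice. Of the female vehicle mice, 5 had 0 counts and 1 (mouse 1-3) had 2. Male LLC1 mice had 16, 54.5 and 140 counts, 435 in all, and every male vehicle mouse had 0. LLC1 and vehicle libraries were fully separate, with the vehicle side at or next to 0. The ratio of summed counts in females was 159 (95% exact interval 43.5 to 1320), and with a floor of 3 counts over the male vehicle group Ltf was at least 136-fold higher in male LLC1 mice. The edgeR adjusted p was 4.97e-05 in females and 9.54e-06 in males. The fitted log2 values, 6.83 ± 0.86 and 9.15 ± 1.04, depend on the prior count at such levels, and without female vehicle mouse 1-3 the female value was 8.67.

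Ngp, the neutrophilic granule protein, had 27, 44 and 115 raw counts in female LLC1 mice and 0, 0 and 2 in female vehicle mice. Male LLC1 mice had 8, 86 and 238 counts and male vehicle mice 0, 1 and 1. The groups did not overlap, but male LLC1 mouse 2-2 held 8 counts where the other 5 male LLC1 mice held 63 or more. Ngp rose in females (6.58 ± 0.79, adjusted p = 7.39e-06) and in males (6.81 ± 0.74, adjusted p = 1.23e-06). The ratio of summed counts was 120 (40.9 to 586) in females and 139 (54.0 to 512) in males. Without female vehicle mouse 1-3 the female log2 value was 7.51.

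Camp, the antimicrobial peptide cathelicidin, was the sparsest of the 10. It had 5, 9.5 and 16 raw counts in female LLC1 mice and 1, 2.5 and 4 in female vehicle mice, and the CPM ranges did not overlap. Male LLC1 mice had 2, 12 and 32 counts, while 4 male vehicle mice had 0 and the highest, mouse 1-2, had 4. That mouse stood above 1 of the 6 male LLC1 mice in CPM. Camp rose by 1.89 ± 0.53 in females (adjusted p = 0.0239) and 3.50 ± 0.60 in males (adjusted p = 0.000174). The female call was lost without LLC1 mouse 1-4 (adjusted p = 0.0586) or vehicle mouse 2-3 (0.05), and the male value was 4.67 without vehicle mouse 1-2.

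Lcn2, lipocalin 2, binds the iron carriers of bacteria and is also made by other tissues in inflammation. It had 3.16, 6.63 and 8.56 CPM in female LLC1 mice and 0.452, 0.690 and 1.74 CPM in female vehicle mice. In males it had 3.22, 9.31 and 11.1 CPM in LLC1 mice and 0.463, 0.671 and 0.824 CPM in vehicle mice. The groups were separate in both sexes, with 14 to 60 raw counts in every vehicle library. Lcn2 rose 6.69-fold in females (log2 2.74 ± 0.35, adjusted p = 1.84e-05) and 12.1-fold in males (3.60 ± 0.37, adjusted p = 6.52e-07).

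Mmp9, gelatinase B, is stored in tertiary granules and is made by other cells too. It had 4.47, 7.81 and 17.0 CPM in female LLC1 mice and 1.87, 4.02 and 6.72 CPM in female vehicle mice. In males it had 7.27, 9.53 and 14.3 CPM in LLC1 mice and 2.06, 4.08 and 5.25 CPM in vehicle mice. The female groups overlapped, with 4 of 6 LLC1 mice above all vehicle mice, and the male groups did not. Mmp9 rose by 1.16 ± 0.34 in females (adjusted p = 0.0334) and 1.39 ± 0.34 in males (adjusted p = 0.00361). The female call was lost when LLC1 mouse 1-4, 1-5 or 2-3 or vehicle mouse 2-1, 2-2 or 2-3 was left out, and when low genes were kept, at adjusted p-values of 0.0523 to 0.0876.

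Retnlg and Chil3 encode secreted proteins of mouse neutrophils, resistin-like gamma and the chitinase-like protein Ym1, and Chil3 is also a gene of some macrophages. Retnlg had 4.00, 6.61 and 12.8 CPM in female LLC1 mice and 0.114, 0.195 and 1.08 CPM in female vehicle mice. In males it had 3.75, 9.29 and 12.9 CPM in LLC1 mice and 0.175, 0.302 and 0.412 CPM in vehicle mice. No LLC1 mouse overlapped a vehicle mouse, and the highest female vehicle value belonged to mouse 1-3 alone. Retnlg rose by 4.35 ± 0.45 in females (adjusted p = 1.12e-06) and 4.77 ± 0.47 in males (adjusted p = 2.96e-07). Without female vehicle mouse 1-3 the female value was 5.21.

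Chil3 had 1.52, 4.34 and 6.71 CPM in female LLC1 mice and 0.0869, 0.143 and 1.03 CPM in female vehicle mice. In males it had 4.21, 11.1 and 19.6 CPM in LLC1 mice and 0.0331, 0.160 and 0.386 CPM in vehicle mice. The groups were again separate, and the highest female vehicle value was that of mouse 2-2 alone. Chil3 rose by 3.74 ± 0.53 in females (adjusted p = 7.73e-05) and 5.85 ± 0.57 in males (adjusted p = 3.59e-07), and without female vehicle mouse 2-2 the female value was 4.86. Its transcript is 94.3% identical to that of Chil4, which starts 33.9 kb away, so reads may be split between the 2 genes and both values are uncertain.

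In total, 9 of 10 genes were fully separate between LLC1 and vehicle mice in females, where 4.05% of all tested genes were higher without overlap, and 9 of 10 in males, where 4.96% were. The exceptions were Mmp9 in females and Camp in males. As 6 of the 10 passed the filter on low counts through LLC1 libraries, these counts too are a description only.

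The titles number each mouse within a set, 1 or 2, and do not say what a set is. The 10 genes summed to 114 to 170 CPM in set 1 and 56.0 to 99.3 CPM in set 2 of female LLC1 mice, against 8.14 to 9.61 CPM in set 1 and 3.93 to 5.02 CPM in set 2 of female vehicle mice. The sums in males were 91.7 to 128 CPM in set 1 and 61.7 to 177 CPM in set 2 with LLC1, against 6.25 to 7.96 CPM in set 1 and 3.38 to 4.93 CPM in set 2 with vehicle. Set 1 stood above set 2 with no overlap in every group but male LLC1 mice. Within each set of each sex, 10 of 10 genes were separate between LLC1 and vehicle mice, with 2 to 4 mice a group. Groups this small separate easily by chance, and the share of all tested genes that did so was not computed. That count is therefore a description only. Mmp9 in set 1 had 14.4 to 17.0 CPM in female LLC1 mice and 5.13 to 6.72 CPM in female vehicle mice, and in set 2 it had 4.47 to 8.26 CPM in female LLC1 mice and 1.87 to 2.91 CPM in female vehicle mice. With the set as a block its log2 fold change was 1.27 in females (edgeR adjusted p = 0.00561).

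**Figure D2:**
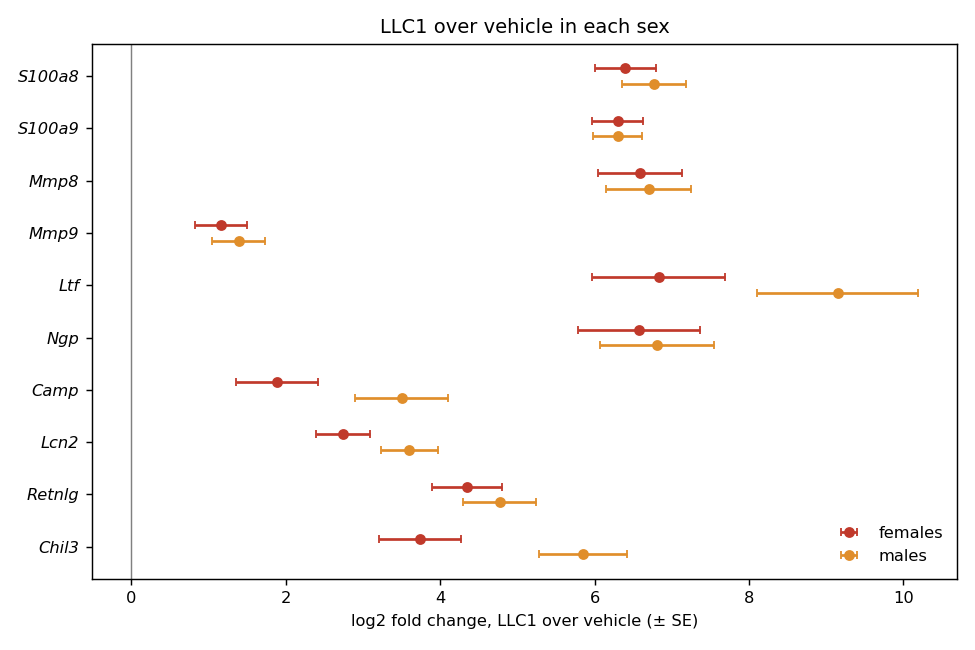
Log2 fold change of LLC1 over vehicle with its SE for the 10 genes in females and males (6 against 6 mice each). S100a8, S100a9, Mmp8, Ngp and Ltf lie above 6 in both sexes and Mmp9 lies at 1.16 and 1.39.

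Levels were compared between genes per kilobase of the gene model. In female LLC1 mice the medians were 70.2 CPM per kilobase for S100a9 and 64.1 for S100a8, whose ranges overlapped, and 10.9 for Retnlg, whose range overlapped with no other. Below them Chil3 (2.66), Lcn2 (2.53), Mmp9 (2.21), Mmp8 (1.79) and Ngp (1.00) overlapped each with the next, and Camp (0.411) and Ltf (0.326) came last. The order in male LLC1 mice was S100a9 (92.6), S100a8 (88.9), Retnlg (15.3), Chil3 (6.78), Lcn2 (3.55), Mmp9 (2.69), Ngp (2.15) and Mmp8 (1.92), then Camp and Ltf. S100a9 and Ltf, at opposite ends of this order in females, both stood among the genes with the largest fold changes.

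**Figure D3:**
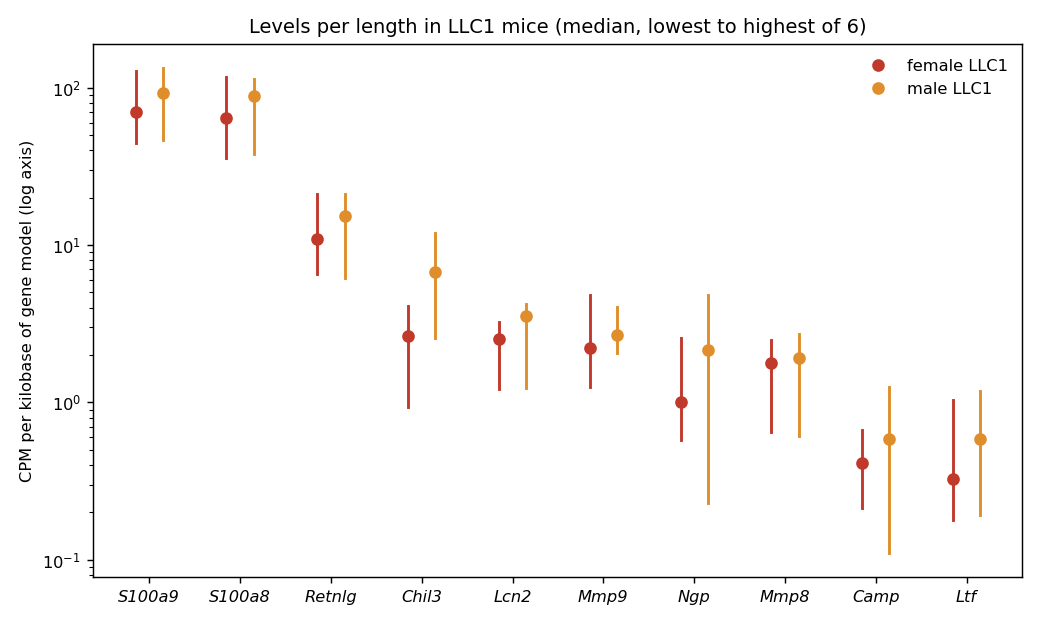
CPM per kilobase of gene model (log axis) in female and male LLC1 mice, as the median (point) and the lowest to highest of 6 mice (line). S100a9 and S100a8 overlap at the top, and Retnlg comes next in both sexes.

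Several of the genes also varied with S100a9 among tumour mice. LLC1 mice differed by 2.87-fold (females) and 2.85-fold (males) between the lowest and highest S100a9, and Ngp ran over a wider range, 0.265 to 5.56 CPM, among males. Over the 6 mice of each LLC1 group, Pearson's r of log2 CPM between S100a9 and each other member was computed with an exact two-sided permutation p, 18 relations in all, adjusted together by Benjamini-Hochberg. S100a8 had r = 0.99 in females and 0.97 in males (exact permutation p = 0.00556, adjusted 0.0333, for each, and Spearman's rho 0.94 for each, adjusted p = 0.0601). Ltf had r = 0.97 in males as well (exact adjusted p = 0.04) and 0.88 in females (exact adjusted p = 0.0334). Ngp had r = 0.93 in females and 0.92 in males, each with an exact adjusted p of 0.0333, and its order over the female LLC1 mice was that of S100a9 (Spearman's rho 1.00, exact adjusted p = 0.05). Chil3 had r = 0.58 in females (exact p = 0.206, adjusted 0.218) and 0.70 in males (exact p = 0.147, adjusted 0.165). Camp had r = 0.44 in females (exact p = 0.369) and 0.90 in males (exact p = 0.0444, adjusted 0.0615). In all, 10 of the 18 relations had an adjusted Pearson p under 0.05, and 0 of 18 had an adjusted Spearman p under 0.05. The perfect order of Ngp in females had an exact Spearman permutation p of 0.00278, which adjusted to 0.05. Pearson's r of Ngp in females had the same exact permutation p, 0.00278, which adjusted to 0.0333. The number of mice alone thus fixed neither count, and the 2 measures gave unlike counts. Set 1 and set 2 held 2 and 4 mice of each LLC1 group, too few to give these relations within a set. In female LLC1 mice S100a9 had 43.1 to 67.0 CPM in set 1 and 23.4 to 37.1 CPM in set 2. The permutations did not keep the sets apart. In females a difference between sets and a relation between mice therefore cannot be told apart. The 2 mice farthest from the median of S100a9 were then left out, with r given for females and males in turn. It was 0.99 and 0.91 for S100a8, 0.81 and 0.97 for Ngp and 0.67 and 0.88 for Ltf. For Camp it was 0.46 and 0.72, and for Chil3 0.57 and 0.36. The 10 genes come from the same libraries, so these relations are not independent of each other.

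**Figure D4:**
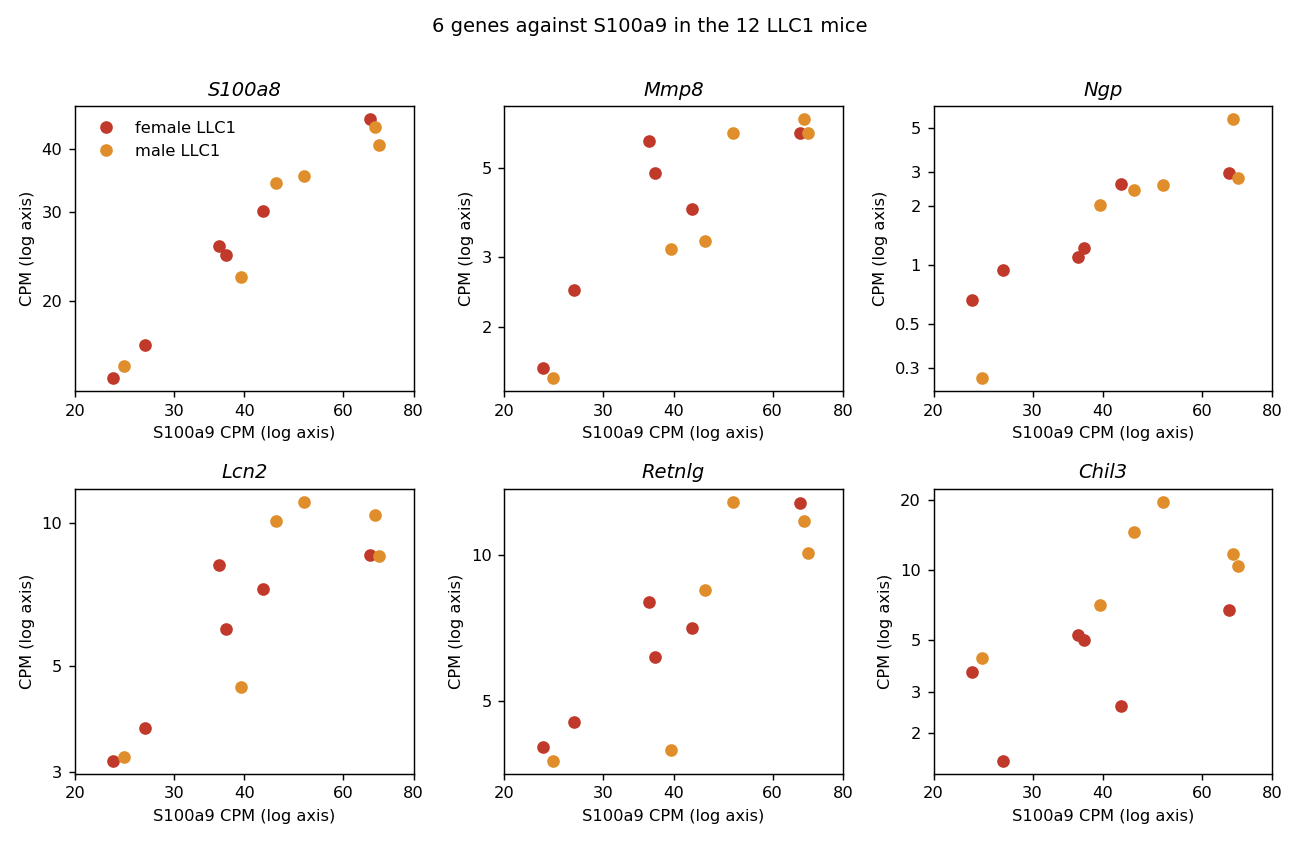
CPM of 6 of the genes against CPM of S100a9 (both log axes) in each of the 6 female and 6 male LLC1 mice. S100a8 lies on a narrow line (r = 0.99 and 0.97), whereas Chil3 scatters (r = 0.58 and 0.70) and stands higher in males.

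Over all 12 LLC1 libraries, each centred on its own group, 14158 genes with a mean of at least 1 CPM were ranked by r with S100a9, as a description. Among genes outside the 10, the nearest were Cd177 (r = 0.966), a neutrophil surface protein that presents proteinase 3, Cxcr2 (0.953), the receptor for neutrophil-recruiting chemokines, Ifitm6 (0.937), Alox5ap (0.934), which leukotriene synthesis needs, and Fpr2 (0.927), a formyl peptide receptor. S100a8 stood first of all at 0.98 and Chil3 at rank 370.

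The responses of females and males were then compared. The interaction of LLC1 with sex called 0 of 10 members and 0 of 17773 genes (0.0%) with edgeR. At an unadjusted p under 0.05 it held 1 member and 2191 genes, limma-voom called 0 genes, and DESeq2 called 42 genes and 0 members. That member was Chil3, whose female minus male difference in log2 response was -2.11 ± 0.78 (edgeR adjusted p = 0.341). For S100a9 the difference was 0.00 ± 0.46. For Ltf it was -2.31 and was not called, on 2 summed counts in female vehicle mice and 0 in male vehicle mice. Its SE from those of both sexes, 1.35, understates the error at such counts. The log2 difference between female and male vehicle mice alone had an SE of 2.07 for Ltf. With such errors a p that misses the threshold does not show that the sexes responded alike. Among LLC1 mice alone, 1 of 10 members differed between the sexes, where 15.7% of all tested genes did. That was Chil3, at 1.52 to 6.71 CPM in females and 4.21 to 19.6 CPM in males, which overlap (log2 female over male -1.45 ± 0.40, adjusted p = 0.0183). Its near copy Chil4 was likewise lower in female LLC1 mice (-1.90 ± 0.44, adjusted p = 0.00573). Chil3 was no longer called once either female LLC1 mouse 1-4 (adjusted p = 0.0504) or male LLC1 mouse 2-1 (0.0615) was left out.

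Related genes were read from lists that had been drawn up with results of these data known, so a list's direction is not independent evidence. Of 17 neutrophil surface and signalling genes, 17 rose in each sex, with a median log2 fold change of 3.95 in females and 4.95 in males, beside 4.97% and 19.5% of all tested genes called higher. Of these 17 genes, 13 reached the filter on low counts in fewer than 6 vehicle libraries and so passed it through LLC1 libraries, where they had to be higher. Their counts and medians are a description only. Ly6g, a marker of mouse neutrophils, had 133 summed counts in female LLC1 mice and 1 in female vehicle mice, and in males 96 with LLC1 against 1 with vehicle. Mrgpra2b, a receptor gene of the list, had 72 and 62 summed counts in female and male LLC1 mice and 0 in every vehicle mouse. Clec4e, a receptor for microbial glycolipids, rose by 5.33 ± 0.54 in females (adjusted p = 4.33e-07) and 5.72 ± 0.55 in males (adjusted p = 1.41e-07). Csf3r, the receptor for the neutrophil growth factor G-CSF, rose by 3.75 ± 0.25 in females (adjusted p = 5.37e-10) and 4.01 ± 0.25 in males (adjusted p = 1.06e-10).

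The granule genes outside the 10 did not move as one. Of 11 tested genes of secondary and tertiary granules, 4 rose in females (Cd177, Slpi, Pglyrp1 and Mmp25) and 7 in males, and none fell. Of all tested genes, 4.97% and 19.5% were called higher. The 4 called in females were the 4 that had passed the filter through LLC1 libraries. They had to be higher there, so their values are a description only. None of the 7 that reached the filter in at least 6 vehicle libraries was called in females. Cd177 is also 1 of the 17 neutrophil surface genes. Cd177 rose by 5.13 ± 0.67 in females (adjusted p = 2.08e-05) and 5.00 ± 0.63 in males (adjusted p = 7.72e-06). Slpi, a protease inhibitor, rose by 3.60 ± 0.44 in females and 3.45 ± 0.42 in males, and Pglyrp1, which binds bacterial peptidoglycan, by 2.76 ± 0.34 and 3.24 ± 0.36, all with adjusted p-values of 7.44e-06 or less. Mmp25, a membrane-bound metalloproteinase, rose by 2.47 ± 0.52 in females (adjusted p = 0.00374) and 2.82 ± 0.57 in males (adjusted p = 0.000702). Primary granule genes were barely detected: Mpo, myeloperoxidase, had 4 summed counts in female LLC1 mice and 3 in female vehicle mice, and in males 20 with LLC1 against 2 with vehicle. Elane, neutrophil elastase, had 17 and 9 counts in female LLC1 and female vehicle mice, and 11 and 0 in male LLC1 and male vehicle mice. Of the 6 primary granule genes only Prtn3, proteinase 3, passed the filter, at 0.45 ± 0.50 in females (adjusted p = 0.618) and 1.88 ± 0.70 in males (adjusted p = 0.0381). That male call was lost in 8 of the 24 fits that each left out 1 mouse.

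Among neutrophil maturation factors, 3 of 7 tested genes rose in females and 5 in males, and none fell. Of all tested genes, 4.97% and 19.5% were called higher. Csf3r, 1 of those called in each sex, was also counted among the 17 neutrophil surface genes. Cebpd, a C/EBP factor of acute inflammation, rose by 1.61 ± 0.40 in females (adjusted p = 0.0143) and 2.52 ± 0.42 in males (adjusted p = 0.000173). Spi1, which encodes PU.1, a factor that myeloid cells need, rose by 0.77 ± 0.20 in females (adjusted p = 0.0155) and 1.20 ± 0.20 in males (adjusted p = 0.000143). Cebpe, the factor known to be required for secondary granule genes in marrow, was near the limit of detection, with 8 summed counts in female LLC1 mice and 24 in female vehicle mice, and in males 6 with LLC1 against 9 with vehicle.

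Receptors moved far less than their ligands. Of 8 tested calprotectin receptors and signalling partners, 3 rose in females and 5 in males, and none fell. Of all tested genes, 4.97% and 19.5% were called higher. Only 1 of the 8 was called in females once mouse 2-3 of either female group was left out. Tlr4, a calprotectin receptor, had 6.57, 11.7 and 16.5 CPM in female LLC1 mice and a median of 6.72 CPM in female vehicle mice. It rose by 0.78 ± 0.22 in females (adjusted p = 0.0281) and 0.97 ± 0.23 in males (adjusted p = 0.0022). Cd33 rose by 0.96 ± 0.22 in females (adjusted p = 0.00719) and 1.08 ± 0.22 in males (adjusted p = 0.00068). Ager, which encodes RAGE, had 79 and 69 summed counts in female LLC1 and female vehicle mice and did not pass the test (0.18 ± 0.31, adjusted p = 0.765). Of 7 tested genes for lipocalin 2 receptors and iron handling, none rose and 2 fell in females, and 1 rose and 3 fell in males. At 5 of 24 single mice left out only 1 of the 2 was called in females, and 0 with the 5 mice that stood apart left out. Called lower were 4.95% of all tested genes in females and 16.8% in males. Slc22a17, a lipocalin 2 receptor, fell by 0.50 on the log2 scale in females (SE 0.13, adjusted p = 0.0162) and 0.69 in males (SE 0.14, adjusted p = 0.00068). Tfrc, the transferrin receptor, had a log2 fold change of -1.28 ± 0.36 in females (adjusted p = 0.0251) and -1.68 ± 0.36 in males (adjusted p = 0.00137).

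Relatives of the 10 genes by sequence were read by family. Of 9 tested genes of the list of other S100 genes, none passed in females and 1 passed in males. That was S100a1, which was lower (-0.27 ± 0.11, adjusted p = 0.0475). S100pbp, 1 of the 9, is named for a protein that binds an S100 protein and is not an S100 gene itself. With single mice left out, 0 to 2 were called in females and 0 to 4 in males. In females edgeR gave 5 of the 9 an unadjusted p under 0.05, and DESeq2 called 2. Of 12 other metalloproteinases and inhibitors, none rose and 1 fell in females, and 1 rose and 5 fell in males. The 1 in females was Mmp2, at -0.69 ± 0.18 (adjusted p = 0.019), a call lost when LLC1 mouse 2-3 or vehicle mouse 1-1 or 1-3 of that sex was left out. Timp1, an inhibitor of Mmp9, had log2 fold changes of 0.13 ± 0.39 in females (adjusted p = 0.872) and -0.13 ± 0.43 in males (adjusted p = 0.841). Of 8 tested paralogues of Chil3, Retnlg, Lcn2 and Ltf and stefins, 4 rose in females, and 3 rose and 1 fell in males. Of the 8, 3 (Chil4, Chil5 and Stfa2l1) had passed the filter through LLC1 libraries. They had to be higher there, so their values are a description only. Stfa2l1 is also 1 of the 17 neutrophil surface genes. The largest rises were those of Stfa2l1, a gene of the stefin family of protease inhibitors, and of Chil4. Stfa2l1 had 103 summed counts in female LLC1 mice and 3 in female vehicle mice, and in males 141 with LLC1 against 2 with vehicle. It rose by 4.73 ± 0.59 in females (adjusted p = 8.16e-06) and 5.60 ± 0.61 in males (adjusted p = 8.37e-07). Chil4 rose by 4.01 ± 0.86 in females (adjusted p = 0.00409) and 6.44 ± 0.79 in males (adjusted p = 3.94e-06), on 45 and 2 summed counts in female LLC1 and female vehicle mice and 156 and 1 in male LLC1 and male vehicle mice. The stefin genes Stfa1, Stfa2, Stfa3 and BC100530 did not pass the filter and had 10 to 35 summed counts in each LLC1 group, against 0 or 1 in each vehicle group. Stefin genes are close copies of each other, so their counts are uncertain. Chil1 rose by 2.63 ± 0.30 in females (adjusted p = 2.56e-06) and 2.78 ± 0.32 in males (adjusted p = 2.41e-06). Retnla, a resistin-like gene of macrophages and fat, had -0.21 ± 0.23 in females (adjusted p = 0.619) and -0.08 ± 0.23 in males (adjusted p = 0.828).

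**Figure D5:**
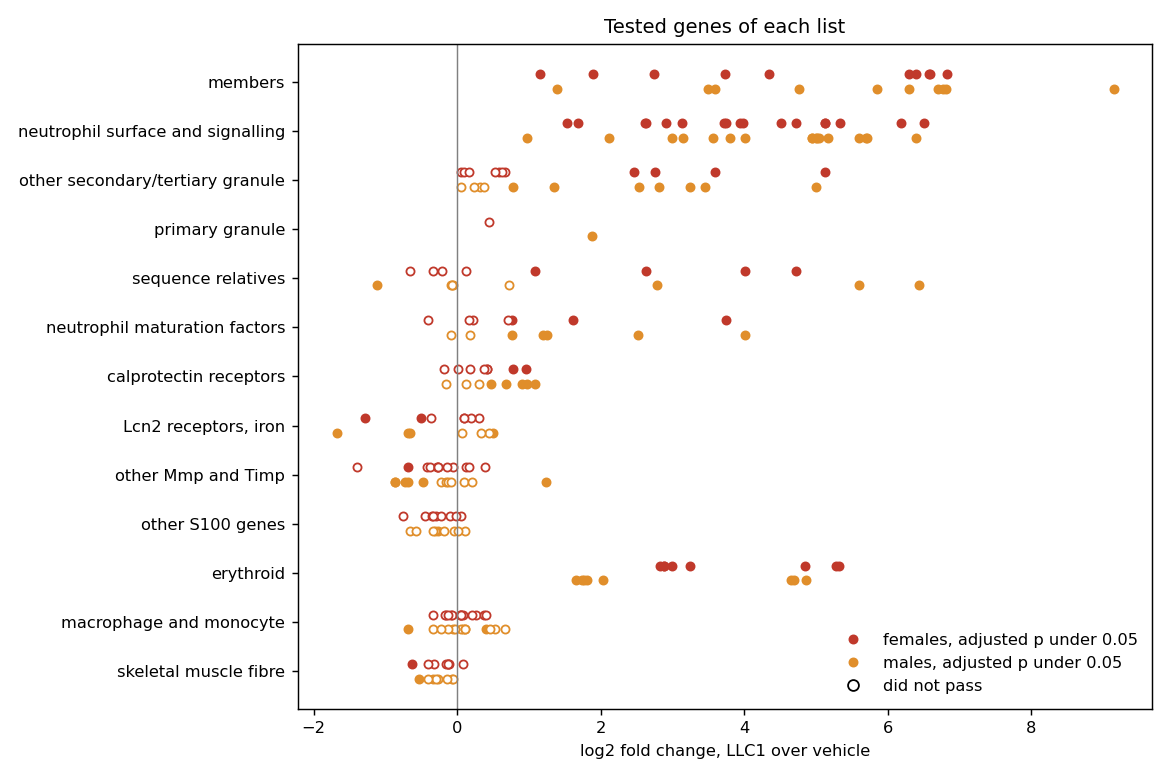
Log2 fold change of LLC1 over vehicle for each tested gene of the 10 members and of 12 lists, in females and males, with filled points for an adjusted p under 0.05. The neutrophil surface genes lie to the right with the members, and so do the red cell (erythroid) genes. Other S100, macrophage and muscle fibre genes lie around 0. Other Mmp and Timp genes lie on both sides of 0, with 1 called higher and 5 lower in males.

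Markers of other blood and tissue cells were read beside these values. Of 14 macrophage and monocyte genes, 0 passed in females, and 1 rose and 1 fell in males. In females edgeR gave 1 of the 14 an unadjusted p under 0.05, and DESeq2 called 1. Their sum was 123 to 291 CPM in female LLC1 mice and 132 to 307 CPM in female vehicle mice, and in males 197 to 237 CPM with LLC1 against 181 to 268 CPM with vehicle. These ranges overlap in each sex, unlike those of the 10 members, which summed to 56.0 to 170 CPM in female LLC1 mice and 3.93 to 9.61 CPM in female vehicle mice. Of 8 red cell genes, 8 rose in each sex, and their median log2 fold change was 3.13 in females and 1.93 in males. The mouse with the highest red cell sum, female LLC1 mouse 2-4, had the lowest S100a9 of the 12 LLC1 mice, at 23.4 CPM. The next female, LLC1 mouse 1-5 with a red cell sum of 3170 CPM, had the highest S100a9 of the females, at 67.0 CPM. Among males, LLC1 mouse 2-5 had both the highest red cell sum (4300 CPM) and the highest S100a9 (69.5 CPM). In males 3 of 4 tested B cell genes were called higher and 0 of 4 without LLC1 mouse 1-4, whose S100a9 of 39.5 CPM lay within the range of the other 5 mice. The red cell genes moved with the 10 members between the groups, and their part in the result was not tested.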

How the data were processed

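Poly(A) RNA of 24 gastrocnemius muscles was made into libraries with a TruSeq version 2 kit, which keeps no strand, per the labels' protocols. The authors deposited raw counts of reads per gene as whole numbers for 43346 genes. The submitters' processing notes name CASAVA, STAR, featureCounts and mm10. Versions, options, annotation release and the handling of reads over several genes: not given in the sources used here. Nothing beyond the titles says that libraries are separate mice, so p-values measure the spread between libraries.

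The main test was edgeR's quasi-likelihood fit (version 4.0.16, R 4.3.3) to the 24 libraries with TMM factors (0.924 to 1.10), 4 group means and 20 residual degrees of freedom. The filter by expression (10 counts at the median depth in 6 libraries) left 17773 genes. Benjamini-Hochberg adjustment ran over those genes, and calls are genes with a value under 0.05. The SE of a log2 fold change follows from the F statistic, and that of an interaction from the SEs of both sexes. The fit was tested on simulated data. Exact permutation tests used SciPy 1.17.1. Alternatives were RLE size factors, no filter, DESeq2 1.42.0, limma-voom (limma 3.58.1), a fit of only the 2 groups compared, replicate blocks, leaving out each library in turn and, chosen after seeing the data, leaving out 5 libraries that stood apart. Full replicate numbers did not pair the samples: r of same-numbered deviations was -0.167 to 0.063 between female LLC1 and female vehicle mice, -0.0652 to -0.0111 between the male groups, -0.0941 to 0.0941 between LLC1 sexes and 0.00704 to 0.296 between vehicle sexes. By set, the first part of the number, the median r between female LLC1 and female vehicle mice was 0.108 within a set and -0.0716 across sets, and 0.0248 to 0.0338 and -0.0382 to -0.0140 for the other pairs of groups.

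The members and gene lists were chosen with earlier results of these data known. Named were all 10 members, up to 4 called genes of a list by size of the log2 fold change, genes that give a list its role, and the 5 genes most like S100a9. Prtn3, S100a1 and Mmp2 were named after their values were seen, as each is 1 of few calls. Promoter windows are from RefSeq (GRCm38.p6), and gene positions from the deposited table. Exon overlaps and transcript identities (Biopython 1.88) were read from GENCODE M21.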

Additional observations from a re-analysis of the deposited data

Results flagged for a closer look

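In groups of 6 mice, a highest or lowest value was picked out where its gap to the nearest other mouse exceeded 0.625 of the group's range. Of 40 groups (10 genes in 4 groups), 4 held such a value. Chance gives about 1 in 20 for normally distributed values, but several vehicle groups lie at or near 0 counts. That rate does not hold for them, so the 4 are a description only. All 4 were the highest mouse of a vehicle group. Female vehicle mouse 1-3 had 0.0504 CPM of Ltf, from 2 counts where the other 5 mice had 0. The same mouse had 1.08 CPM of Retnlg, from 43 counts, with the next mouse at 0.301 CPM. Female vehicle mouse 2-2 had 1.03 CPM of Chil3, from 45 counts, with the next at 0.202 CPM. Male vehicle mouse 1-2 had 0.14 CPM of Camp, from 4 counts, with the next at 0.0453 CPM. Each of the 4 values lies below the lowest LLC1 mouse of its sex except that of Camp.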

How the results depend on the processing

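Of 637 member effects of LLC1 under alternatives, 622 kept their direction and side of the threshold, 15 kept the direction but no longer passed, and 0 reversed. Those 15 were all in females, for Mmp9, Camp and Ltf. Members called in females numbered 8 to 10 with single mice left out, 9 with no filter, and 8 in a fit of only the female groups. In the fit of only the male groups 8 were called, since Ngp and Camp did not pass its filter. The genes called with LLC1 in females numbered 1763, against 919 to 2283 with single mice left out and 855 without the 5 libraries that stood apart. The interaction called 0 genes, against 0 to 7 with single mice left out and 42 with DESeq2. Between female and male LLC1 mice 2787 genes were called, against 1606 to 3724 with single mice left out and 966 in a fit of those 2 groups. Between female and male vehicle mice 1107 genes were called, against 659 to 1476 with single mice left out and 333 without the 5 libraries. The cause was not tested.

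The full replicate number did not pair the samples. With the full title number as a replicate block, 480 genes were called in females, 3607 in males and 269 between vehicle sexes, and 7 members in females. With the set number as a replicate block the interaction called 6 genes and 10 members were called in females. Both blocks called 10 members in males, and the set block moved no other count of all genes or of members by over 1.5 times.

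Reversals of sign were limited to sex differences, and no reversed value passed the test, though those of Ngp (-0.24 in the fit as reported) and Retnlg (-0.42) were not small. The S100a9 interaction was 0.00 with RLE factors and DESeq2, 0.01 with no filter, 0.04 without the 5 libraries and -0.20 to 0.12 with single mice left out. The S100a8 interaction was 0.00 without the 5 libraries. The Ngp interaction was 0.00 with limma-voom, 0.73 without the 5 libraries and -0.49 to 0.71 with single mice left out, and that of Retnlg 0.02, 0.34 and -0.65 to 0.44. With single mice left out, the Mmp8 interaction was -0.46 to 0.16 and its log2 difference between female and male LLC1 mice -0.30 to 0.05. Between those mice Ngp passed (-0.96, adjusted p = 0.037) without male LLC1 mouse 2-2, and over all single mice left out its adjusted p was 0.037 to 0.628. Near-zero vehicle counts limit Ltf, Ngp, Mmp8 and Camp: their folds rest on 0 to 15 summed reads a vehicle group.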

Other observations

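Other marker lists were read from the same fit, as values. In females 0 of 4 eosinophil, basophil and mast cell genes, 0 of 6 adipocyte genes and 0 of 3 epithelial genes passed with edgeR, and in males likewise 0 of each. At an unadjusted p under 0.05 and with DESeq2 each of these counts was again 0. Platelet genes were 2 of 6 higher in each sex, with Ppbp, a platelet chemokine, at 2.00 ± 0.46 in females (adjusted p = 0.00725) and 1.51 ± 0.51 in males (adjusted p = 0.0229), and single mice left out gave 1 to 3 of 6 in each sex. Muscle fibre genes were 1 of 8 lower in females and 2 of 8 in males.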
